A study of Mus musculus with 18 samples.

Results

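The genes described here are 9 transcripts that mark proprioceptors and low-threshold mechanoreceptors among the sensory neurons of dorsal root ganglia (DRG): Pvalb, Runx3, Etv1, Spp1, Calb1, Cntnap2, Ntng1, Th and Slc17a8. They were chosen by name, and all 9 were found among the 36737 genes of the table. Bulk poly(A) RNA sequencing was performed on L3–L5 DRG of adult CD1 mice, an outbred strain with no introduced allele, in 18 libraries, 1 for each mouse by the numbers given, from 3 groups of 6 with 3 males and 3 females each. The groups were sham surgery (Sham), left tibial fracture with an intramedullary pin and vehicle (Fracture), and the same fracture with Protectin DX (Fracture+PDX), a lipid mediator derived from the omega-3 fatty acid DHA. Ganglia of mice with a fracture were removed on day 3. The day of the sham DRG and the PDX dose of these mice are not given in the sources used here.

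Proprioceptors are large neurons that report muscle length and tension through endings in muscle spindles and tendon organs. Their identity depends on neurotrophin-3 acting on TrkC (Ntrk3) and on the transcription factors Runx3 and Etv1, and many contain the calcium buffer parvalbumin (Pvalb). Low-threshold mechanoreceptors (LTMRs) carry light touch: the A-fiber classes are myelinated and express such genes as Calb1, Cntnap2 and Ntng1, and the unmyelinated C-LTMRs express tyrosine hydroxylase (Th) and the vesicular glutamate transporter VGLUT3 (Slc17a8). Spp1, the secreted phosphoprotein osteopontin, is high in large myelinated DRG neurons and also in bone, osteoclasts and activated macrophages.

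RefSeq promoter windows, 250 bases before to 50 bases after an annotated transcription start on GRCm38.p6, were found for 8 of the 9 genes (14 windows). Short sequences that factors of the Runx and ETS families and of the cAMP pathway are known to bind, the TATA box and an E-box were searched on both strands, since Runx3 and Etv1 are themselves a Runx and an ETS factor. The 250 bases before the start are shown for Pvalb, Spp1 and Th, 5′ to 3′ in the direction of the gene, because they hold ETS, Runx and cAMP-response letters. Capitals mark a match to the Runx letters TGTGGT or ACCACA, the ETS letters CCGGAA or TTCCGG, the TATA letters TATAAA or TTTATA, or the cAMP-response letters TGACGTCA.
Pvalb, chr15:78206401-78206650, minus strand: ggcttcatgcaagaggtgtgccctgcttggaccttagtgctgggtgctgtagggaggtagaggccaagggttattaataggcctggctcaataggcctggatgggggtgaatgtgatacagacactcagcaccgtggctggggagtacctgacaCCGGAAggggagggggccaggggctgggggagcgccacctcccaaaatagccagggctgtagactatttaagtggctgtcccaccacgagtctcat
Spp1, chr5:104434861-104435110, plus strand: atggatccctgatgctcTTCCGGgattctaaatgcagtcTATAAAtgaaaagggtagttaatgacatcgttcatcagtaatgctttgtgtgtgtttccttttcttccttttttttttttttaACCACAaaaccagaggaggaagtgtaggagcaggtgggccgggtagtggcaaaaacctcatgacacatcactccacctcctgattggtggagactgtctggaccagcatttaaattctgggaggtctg
Th, chr7:142899996-142900245, minus strand: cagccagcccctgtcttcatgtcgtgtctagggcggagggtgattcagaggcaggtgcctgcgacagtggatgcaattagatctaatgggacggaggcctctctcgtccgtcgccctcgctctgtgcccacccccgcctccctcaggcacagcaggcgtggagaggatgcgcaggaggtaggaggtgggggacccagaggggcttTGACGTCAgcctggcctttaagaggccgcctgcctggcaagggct
The Runx letters occurred in 3 of the 14 windows (those of Etv1, Runx3 and Spp1) and in 16.8% of all 32851 windows. The ETS letters occurred in 2 of 14 (Pvalb and Spp1) and in 14.9% of all windows, and the TATA letters in 2 of 14 (Etv1 and Spp1) and in 13.6%. The cAMP-response letters occurred in 1 of 14, that of Th, from 45 bases before the start, and in 1.79% of all windows. The E-box letters CAGCTG were in 0 of 14 and in 16.3% of all windows. These matches describe the letters of the windows and were not tied to any value below.

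Total counts were 63235040 to 82824942 per library, and log2 counts-per-million values (CPM) of any 2 libraries correlated across genes with r = 0.963 to 0.986. A list of 12 pan-neuronal genes summed to 10056 to 11748 CPM over all libraries. Their sum was 10056 to 10809 CPM in Sham, 11222 to 11502 CPM in Fracture and 10914 to 11748 CPM in Fracture+PDX. A list of 10 satellite glia and Schwann cell genes summed to 13495 to 27685 CPM over all libraries. Genes typical of skeletal muscle and of placenta differed between libraries, and the source of this RNA was not tested. The summed level of 12 skeletal muscle genes was 37.5 to 794 CPM in Sham, 68.7 to 1572 CPM in Fracture and 18.4 to 738 CPM in Fracture+PDX. The summed level of 9 placental genes was 193 to 629 CPM in Sham, 30.6 to 296 CPM in Fracture and 29.3 to 155 CPM in Fracture+PDX. All 9 were lower than in Sham in Fracture (2 called by edgeR at an adjusted p under 0.05, 2 not overlapping) and in Fracture+PDX (6 called, 8 not overlapping). The shares over all genes were 2.92% and 4.5% for calls and 2.57% and 2.86% for groups without overlap. The bearing of this difference on the members was not tested. Sham male 1 was the lowest library of its group for Pvalb, Runx3, Etv1, Spp1 and Cntnap2 and the highest for Th.

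Per transcript length, the 9 genes spanned more than 2 orders of magnitude. Over the 18 libraries Spp1 averaged 130 ± 25.6 FPKM (SD; fragments per kilobase of transcript, scaled to library size), Pvalb 74.2 ± 15.5 FPKM and Th 35.5 ± 6.13 FPKM. Cntnap2, a neurexin-family protein of the myelinated axon's juxtaparanode, averaged 14.3 ± 0.859 FPKM. Etv1 averaged 8.93 ± 0.843 FPKM, the calcium buffer Calb1 8.63 ± 1.54 FPKM, and Ntng1, a membrane-anchored netrin, 5.02 ± 0.367 FPKM. The lowest levels were those of Runx3, 2.22 ± 0.248 FPKM, and Slc17a8, 0.943 ± 0.348 FPKM. Within libraries, Spp1 was above Pvalb in 18 of 18 and Pvalb above Th in 17 of 18, the exception being Sham male 1. Etv1 and Calb1 were the neighbors that did not separate: Etv1 was above Calb1 in 8 of 18 libraries, and their ranges of 7.35 to 10.2 and 5.82 to 11.7 FPKM overlapped.

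**Figure D1:**
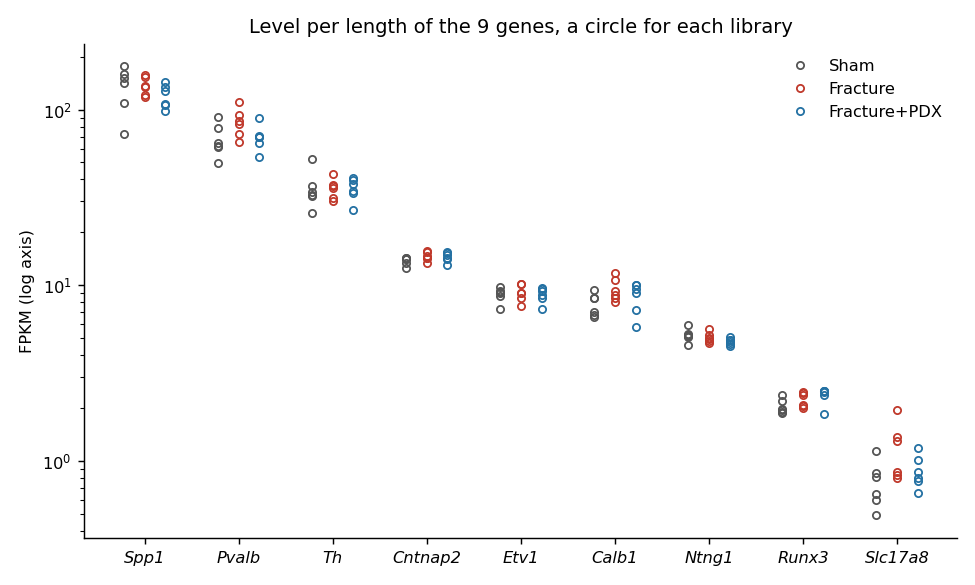
FPKM of the 9 genes on a log axis, with a circle for each library, by group (n = 6). Spp1 stood highest with a mean of 130 FPKM and Slc17a8 lowest with 0.943 FPKM, and the 3 groups overlapped for every gene.

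None of the 9 genes passed an adjusted p of 0.05 after fracture, after PDX or between PDX-treated fracture and Sham mice, by edgeR's quasi-likelihood test with sex as a covariate. The first comparison asked what fracture did to DRG by day 3. There edgeR called 603 of 20659 genes tested (2.92%), 225 higher and 378 lower in Fracture, and 0 of the 9. At an unadjusted p under 0.05, edgeR counted 2 of the 9 genes, Calb1 and Slc17a8, against 18.5% of all genes tested. DESeq2 called 1 of the 9, Calb1, against 7.31% of all genes, and limma on log2(FPKM + 1) called 0 members against 2.12%. Fold changes were positive for 8 of the 9, with a median log2 fold change of 0.10 against 0.0021 over all genes tested. Because bulk RNA was sequenced, fewer or more cells of a type and less or more RNA per cell cannot be told apart.

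Among Pvalb, Runx3 and Etv1, the members tied to proprioceptor identity, Pvalb had the largest log2 fold change after fracture. Pvalb ranged from 56.8 to 102 CPM in Sham (median 72.7), from 75.3 to 129 CPM in Fracture (median 97.1) and from 63.2 to 100.4 CPM in Fracture+PDX (median 80.6). All 6 Fracture libraries lay above the Sham median and 2 lay above every Sham library, so the groups overlapped. The log2 fold change was 0.35 for Fracture against Sham (95% CI -0.01 to 0.72, edgeR adjusted p = 0.287), -0.29 for Fracture+PDX against Fracture (95% CI -0.61 to 0.03, adjusted p = 0.917) and 0.06 for Fracture+PDX against Sham (95% CI -0.18 to 0.30, adjusted p = 0.840).

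Pvalb followed the skeletal muscle genes across libraries. Parvalbumin is also abundant in fast-twitch muscle fibers. With the mean of each group and sex removed, Pvalb and the mean of the 12 muscle genes correlated across the 18 libraries with Pearson r = 0.75 (permutation p = 0.00028, adjusted over 8 relations 0.00224) and Spearman rho = 0.74 (permutation p = 0.00056, adjusted 0.00448). Leaving out the 2 most extreme libraries for the muscle genes gave r = 0.78. Within the groups, without removing the sex means, r was 0.75 in Sham, 0.94 in Fracture and 0.89 in Fracture+PDX, each over 6 libraries and given without a test. The 3 genes most like Pvalb among 20199 genes by the same deviations were Srl (r = 0.91), Slc2a4 (r = 0.87) and Casq1 (r = 0.87), of which Srl and Casq1 encode calcium-handling proteins of the muscle sarcoplasmic reticulum and Slc2a4 the insulin-responsive glucose transporter of muscle and fat.

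The muscle genes shared the direction of Pvalb. All 12 had positive log2 fold changes in Fracture against Sham (median 2.06, 0 called, 1 at an unadjusted p under 0.05) and all 12 had negative ones in Fracture+PDX against Fracture (median -1.91, 0 called, 0 at an unadjusted p under 0.05). None of the 12 was absent from the libraries. With the muscle mean as a covariate, an alternative added after the data were seen, the log2 fold change of Pvalb was 0.05 for Fracture against Sham (edgeR adjusted p = 0.888) and 0.015 for Fracture+PDX against Fracture (edgeR adjusted p = 0.999). With the same covariate Calb1 was at 0.30 and Slc17a8 at 0.69 in Fracture against Sham. The muscle genes moved with the groups, so this fit cannot separate muscle from group. It also left fewer calls over all genes in Fracture against Sham. The part of muscle RNA in the Pvalb difference was not tested.

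**Figure D2:**
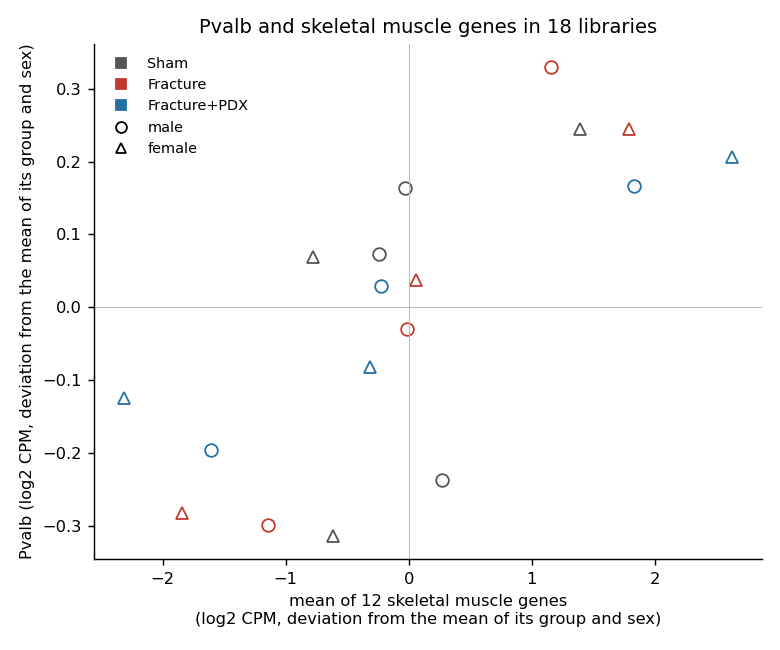
Deviation of Pvalb from the mean of its group and sex (log2 CPM, vertical) against that of the mean of 12 skeletal muscle genes (log2 CPM, horizontal) in 18 libraries. Libraries with more muscle RNA had more Pvalb (r = 0.75), with Sham male 1 below the trend.

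The transcription factors that specify proprioceptors showed small differences. Etv1, an ETS factor, ranged from 108 to 144 CPM in Sham, 111 to 151 CPM in Fracture and 109 to 139 CPM in Fracture+PDX. The 3 ranges nearly coincided, with log2 fold changes of 0.05 (edgeR adjusted p = 0.828), -0.04 (0.991) and 0.01 (0.973) for Fracture against Sham, Fracture+PDX against Fracture and Fracture+PDX against Sham. Runx3 ranged from 10.4 to 13.2 CPM in Sham (median 10.7), 11.1 to 13.9 CPM in Fracture (median 12.4) and 10.5 to 14.03 CPM in Fracture+PDX (median 13.5). Of the 6 Fracture+PDX libraries 5 were above every Sham library, and Fracture+PDX male 2 was within the Sham range. The log2 fold change of Runx3 against Sham was 0.15 in Fracture (95% CI -0.02 to 0.31, edgeR adjusted p = 0.346) and 0.23 in Fracture+PDX (95% CI 0.04 to 0.42, edgeR adjusted p = 0.181; exact permutation p = 0.0281). Without Fracture+PDX male 2 the latter was 0.30 with an edgeR adjusted p of 0.0441.

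Runx3 is also a T and NK cell factor, and its level was therefore set beside 9 lymphocyte genes. Those 9 summed to 2.09 to 4.0 CPM in Sham, 1.1 to 2.02 CPM in Fracture and 1.88 to 2.31 CPM in Fracture+PDX, with none at 0 in every library. Their sum was lower in each Fracture library than in each Sham library, while edgeR called 0 of the 6 genes tested there, 1 had an unadjusted p under 0.05, and none of the 6 separated the groups by itself. Their part in the level of Runx3 was not tested. Runx3 and the mean of these genes correlated with r = 0.11 (permutation p = 0.676, adjusted 0.676) and rho = 0.04 (permutation p = 0.868, adjusted 0.868) over the 18 libraries, and r was -0.10 without the 2 farthest. All 9 members were also set against 15 marker lists after the values were seen, which gave 135 relations. Runx3 had its largest correlation with the 12 macrophage genes, r = -0.67 (permutation p = 0.00264, adjusted over 135 relations 0.0891) and rho = -0.63 (permutation p = 0.00618, adjusted 0.278), with r = -0.56 without the 2 farthest libraries. A single antisense gene overlaps Runx3 on chromosome 4, and the strand setting of the counting is not given. Of the other members, 2 antisense genes overlap Ntng1 and 1 gene on the same strand overlaps Spp1.

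Spp1 varied widely within groups. Its range was 131 to 322 CPM in Sham (median 265), 216 to 290 CPM in Fracture (median 246) and 183 to 255 CPM in Fracture+PDX (median 214). The Sham libraries enclosed all 12 others. Log2 fold changes were 0.03 for Fracture against Sham (95% CI -0.42 to 0.47, edgeR adjusted p = 0.965), -0.19 for Fracture+PDX against Fracture (95% CI -0.43 to 0.04, adjusted p = 0.917) and -0.17 for Fracture+PDX against Sham (95% CI -0.61 to 0.28, adjusted p = 0.739). Without Sham male 1 the Fracture against Sham value turned to -0.11. The spread between libraries of the same group and sex, an SD of 0.34 on the log2 scale, was second to that of Slc17a8 (0.45) among the 9 genes and larger than that of 99.0% of 767 genes at a like level.

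Cells outside the neurons can also contribute Spp1. The bone-forming list of 8 genes summed to 20.8 to 32.1 CPM in Sham, 22.3 to 38.0 CPM in Fracture and 19.7 to 34.7 CPM in Fracture+PDX, and the 5 osteoclast genes to 22.4 to 30.7, 18.5 to 25.3 and 18 to 30.4 CPM in the same order. The 12 macrophage genes summed to 131 to 159 CPM in Sham, 100.9 to 132 CPM in Fracture and 101 to 139 CPM in Fracture+PDX. All 12 macrophage genes had negative values in Fracture against Sham (median -0.23, 3 called lower, 4 not overlapping), and 7 of them in Fracture+PDX against Sham (median -0.12, 2 called lower). The shares over all genes were 2.92% for calls and 2.57% for groups without overlap in the first comparison, and 4.5% for calls in the second. Correlations of Spp1 with the 5 lists of bone-forming, osteoclast, macrophage, marrow neutrophil and placental genes were between -0.31 and 0.29 (permutation p from 0.218 to 0.612, adjusted 0.619 to 0.676), with rho from -0.47 to 0.29 (adjusted permutation p 0.217 to 0.752). Without the 2 farthest libraries they ranged from -0.43 to 0.45. Among the 135 relations, the highest for Spp1 was that with the 9 lymphocyte genes, r = 0.66 (permutation p = 0.00242, adjusted over 135 relations 0.0891) and rho = 0.53 (permutation p = 0.0249, adjusted 0.305). It was 0.54 without Sham male 1 and 0.40 without the 2 farthest libraries, Sham male 1 and Sham female 2. Next were 10 satellite glia and Schwann cell genes, r = 0.55 (permutation p = 0.0181, adjusted 0.306) and rho = 0.53 (permutation p = 0.0240, adjusted 0.305), with 0.36 without Sham male 1 and 0.54 without the 2 farthest libraries, Sham female 1 and Sham male 1. The 8 marrow neutrophil genes summed to 82.0 to 365 CPM in Sham, 88.4 to 189 CPM in Fracture and 78.3 to 465 CPM in Fracture+PDX. All 8 had negative values in Fracture against Sham (median -0.78, 0 called, 1 at an unadjusted p under 0.05) and positive ones in Fracture+PDX against Fracture (median 1.13, 0 called, 8 at an unadjusted p under 0.05, against 5.41% of all genes). The part of these cells in the level of Spp1 was not tested.

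Calb1, of the A-fiber LTMR genes, had the smallest unadjusted edgeR p of the 9 members in the 3 group comparisons (0.00655, Fracture against Sham). Calb1 ranged from 34.5 to 50.4 CPM in Sham (median 40.9), 42.7 to 63.2 CPM in Fracture (median 48.6) and 31.6 to 53.7 CPM in Fracture+PDX (median 49.8). All 6 Fracture libraries were above the Sham median, and 3 were above every Sham library. The log2 fold change for Fracture against Sham was 0.31 (95% CI 0.10 to 0.51, edgeR adjusted p = 0.103), and an exact permutation test of the group difference in log2 CPM gave p = 0.0476. DESeq2 gave 0.31 with an adjusted p of 0.0195, and without Fracture male 2 edgeR gave 0.37 with an adjusted p of 0.0487. The call therefore depended on the tool and on 1 library. Relative to the mean of the 12 pan-neuronal genes the difference was 0.18 (exact permutation p = 0.199). For Fracture+PDX the log2 fold change of Calb1 was -0.13 against Fracture (95% CI -0.46 to 0.19, edgeR adjusted p = 0.976) and 0.17 against Sham (95% CI -0.10 to 0.44, edgeR adjusted p = 0.524). Leaving out 1 library moved the value against Fracture between -0.05, without Fracture+PDX female 2, and -0.20, without Fracture+PDX female 1.

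Cntnap2 was the least variable of the higher genes. Its range was 142 to 162 CPM in Sham, 150.1 to 179 CPM in Fracture and 149 to 178 CPM in Fracture+PDX. A total of 5 of 6 Fracture libraries and 4 of 6 Fracture+PDX libraries lay above every Sham library. Its log2 fold changes were 0.10 for Fracture against Sham (95% CI -0.0045 to 0.19, edgeR adjusted p = 0.294), -0.0085 for Fracture+PDX against Fracture (adjusted p = 0.997) and 0.09 for Fracture+PDX against Sham (adjusted p = 0.343). In the annotation used here 28 non-coding genes lie within Cntnap2, so reads of these cannot always be separated from its own.

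Ntng1 was the single member with a negative value in all 3 comparisons. It ranged from 42.0 to 53.3 CPM in Sham (median 47.1), 43.5 to 51.7 CPM in Fracture (median 44.99) and 41.9 to 46.6 CPM in Fracture+PDX (median 43.9). None of the Fracture+PDX libraries exceeded the Sham median. Log2 fold changes were -0.03 for Fracture against Sham (edgeR adjusted p = 0.814), -0.06 for Fracture+PDX against Fracture (edgeR adjusted p = 0.935) and -0.10 for Fracture+PDX against Sham (95% CI -0.21 to 0.0062, edgeR adjusted p = 0.313; exact permutation p = 0.0476).

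Ntng1 went against the glial genes across libraries. With the 10 satellite glia and Schwann cell genes it had the largest correlation of the 135, r = -0.78 (permutation p = 0.00015, adjusted over 135 relations 0.0162) and rho = -0.75 (permutation p = 0.00059, adjusted 0.0398), and r was -0.75 without the 2 farthest libraries, Sham female 1 and Sham male 1. Only this relation and that of Pvalb with the muscle genes (adjusted over 135 relations 0.0162 for r and 0.0398 for rho) passed 0.05 after this adjustment. The glial genes summed to 13495 to 27685 CPM in Sham, 15955 to 22723 CPM in Fracture and 18604 to 21014 CPM in Fracture+PDX, so the groups overlapped, and their part in the level of Ntng1 was not tested.

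Set against the pan-neuronal mean, Ntng1 separated Fracture+PDX from Sham, while Fracture overlapped both. Relative to that mean it ranged from -3.52 to -3.26 on the log2 scale in Sham, -3.65 to -3.40 in Fracture and -3.69 to -3.56 in Fracture+PDX. All 6 Fracture+PDX libraries were below all 6 Sham libraries, a difference of -0.23 (exact permutation p = 0.00216, the smallest that 6 against 6 can give), and the difference was -0.15 for Fracture against Sham (exact permutation p = 0.0216). This scaling moved the median of all genes by -0.13 in Fracture+PDX and -0.12 in Fracture against Sham, and on it 6.02% of all 20574 genes did not overlap between Fracture+PDX and Sham, compared with 4.84% of genes between Fracture and Sham and 0.175% between Fracture+PDX and Fracture. Among the 9 members Ntng1 in Fracture+PDX against Sham was the 1 case without overlap, and its permutation p was not adjusted for the members and comparisons examined. The pan-neuronal mean itself was higher by 0.12 in that comparison, and the difference of Ntng1 in log2 CPM without the scaling was -0.10. On CPM itself no member separated any pair of groups, against 2.57%, 0.267% and 2.86% of genes in the 3 comparisons.

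Of the C-LTMR genes, Th hardly differed between groups. Th ranged from 67.6 to 136 CPM in Sham (median 87.0), 78.2 to 113 CPM in Fracture (median 94.2) and 70.9 to 109 CPM in Fracture+PDX (median 92.6). Sham male 1 was the highest library at 136 CPM, with the next Sham library at 93.4 CPM. The log2 fold changes were 0.03 (95% CI -0.31 to 0.36, edgeR adjusted p = 0.952), -0.0096 (95% CI -0.25 to 0.23, adjusted p = 0.997) and 0.02 (95% CI -0.28 to 0.32, adjusted p = 0.971) for Fracture against Sham, Fracture+PDX against Fracture and Fracture+PDX against Sham. Changes of up to about the size of these intervals could not be seen with 6 libraries per group.

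Th is also made by sympathetic neurons. The 8 sympathetic genes summed to 16.1 to 21.9 CPM in Sham, 9.21 to 16.6 CPM in Fracture and 9.31 to 17.4 CPM in Fracture+PDX, with none at 0 in every library. In Fracture against Sham 2 of the 5 tested were called lower (median of the 5, -0.60) and 1 was higher, at 0.19. In Fracture+PDX against Sham 1 of 6 was called lower, with 4 at an unadjusted p under 0.05 (median -0.62), and 1 was higher, at 2.31. The shares of all genes called were 2.92% and 4.5%, and 18% had an unadjusted p under 0.05 in Fracture+PDX against Sham. The part of the 8 sympathetic genes in the level of Th was not tested. Th and their mean correlated with r = 0.19 (permutation p = 0.449, adjusted 0.619) and rho = 0.20 (permutation p = 0.428, adjusted 0.752), and r was 0.33 without the 2 farthest libraries. Among the 135 relations, the largest for Th was that with the 11 nociceptor genes, r = 0.64 (permutation p = 0.00401, adjusted over 135 relations 0.108). For it rho was 0.59 (permutation p = 0.0118, adjusted 0.305), and r was 0.56 without the 2 farthest libraries.

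Slc17a8 had the largest fold change and the lowest counts. Its counts were 203 to 803 per library. It ranged from 2.52 to 5.85 CPM in Sham (median 3.82), 4.23 to 10.4 CPM in Fracture (median 5.62) and 3.47 to 6.20 CPM in Fracture+PDX (median 4.36). Fracture male 3 was the highest at 10.4 CPM, and 3 Fracture libraries were above every Sham library. The log2 fold change was 0.66 for Fracture against Sham (95% CI 0.10 to 1.22, edgeR adjusted p = 0.196; exact permutation p = 0.0411). It was -0.44 for Fracture+PDX against Fracture (95% CI -0.92 to 0.04, edgeR adjusted p = 0.917) and 0.22 for Fracture+PDX against Sham (95% CI -0.19 to 0.63, edgeR adjusted p = 0.612). Leaving out Fracture male 3 gave 0.42 (edgeR adjusted p = 0.375) for Fracture against Sham and -0.23 (edgeR adjusted p = 0.997) for Fracture+PDX against Fracture.

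**Figure D3:**
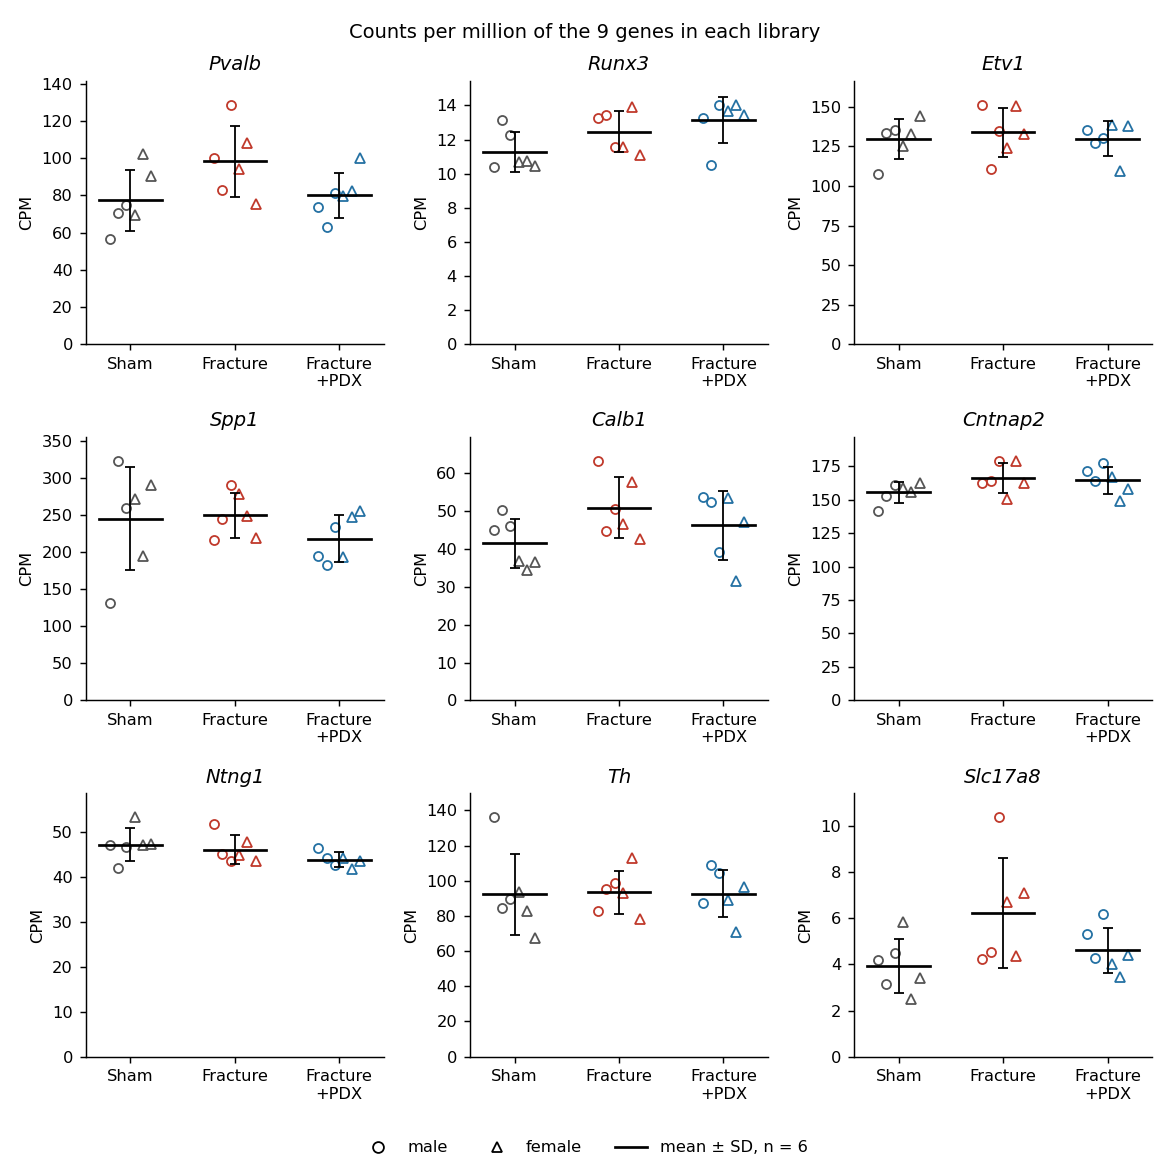
CPM of the 9 genes in each of the 18 libraries, circles for males and triangles for females, with the mean and SD of each group (n = 6) and axes from 0. The groups overlap for all 9 genes; Slc17a8 in Fracture male 3 (10.4 CPM) and Th in Sham male 1 (136 CPM) lie apart from their groups.

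The comparison of Fracture+PDX with Fracture asked what PDX added after fracture. By edgeR 0 of 20562 genes were called (0%), 5.41% had an unadjusted p under 0.05, and the 9 genes counted 0 by either measure. DESeq2 called 15 genes (0.073%) and limma 0, none of them a member. Fold changes were negative for 8 of the 9 and positive for Runx3, at 0.08, with a median of -0.06 against -4.5e-05 over all genes. This comparison shares the 6 Fracture libraries with the first, so a Fracture library that stands high or low moves them in opposite directions. Fracture+PDX against Sham, which shares libraries with each of the others, gave 925 calls among 20574 genes (4.5%), of which 0 were members. Runx3 had an unadjusted p under 0.05 there, against 18% of all genes, and DESeq2 (7.87% of all genes called) and limma (3.17%) called 0 members.

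**Figure D4:**
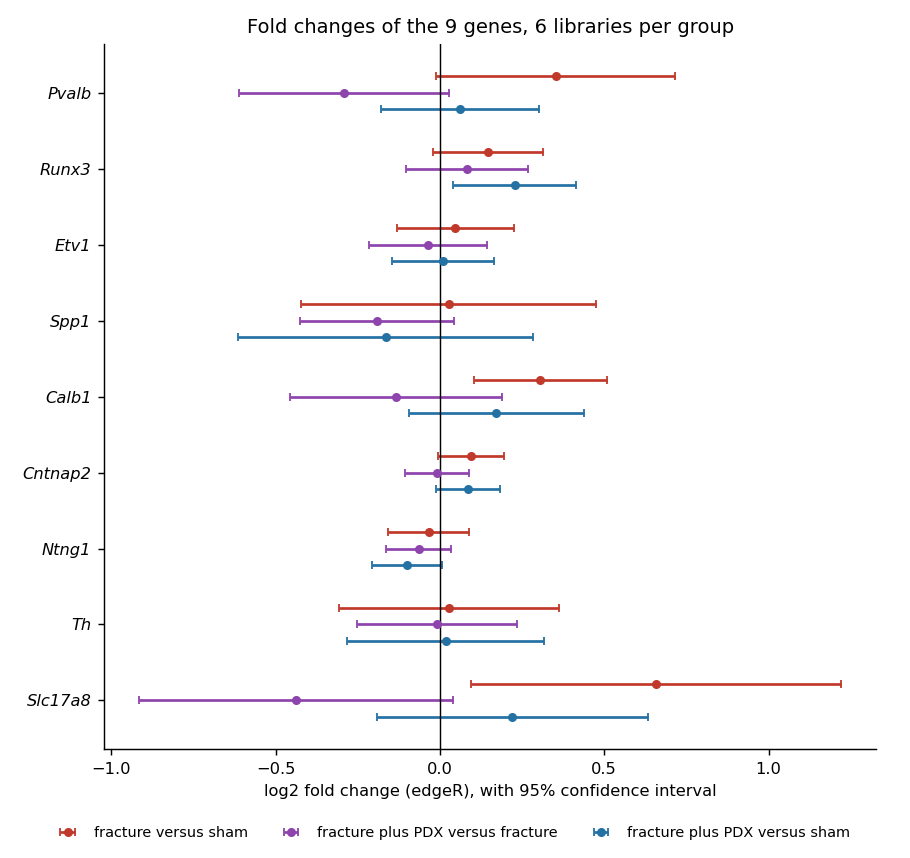
Log2 fold changes of the 9 genes with 95% confidence intervals in the 3 comparisons, 6 libraries per group. The intervals of Calb1 (0.10 to 0.51) and Slc17a8 (0.10 to 1.22) in Fracture against Sham and of Runx3 (0.04 to 0.42) in Fracture+PDX against Sham lie above 0, and none of these passed an adjusted p of 0.05.

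No member was called between males and females. For the 9 genes edgeR called 0 differences between females and males over all 18 libraries, against 0.297% of 20527 genes (10.4% at an unadjusted p under 0.05, 0 of them members), and DESeq2 called 0 with 1 at an unadjusted p under 0.05. Calb1 was nearest, at -0.21 in females (95% CI -0.42 to 0.0071, edgeR adjusted p = 0.50). In Sham, the 3 females had 34.5 to 36.9 CPM of Calb1 and the 3 males 44.97 to 50.4 CPM, whereas in Fracture females had 42.7 to 57.7 and males 44.9 to 63.2 CPM. For Pvalb, the 3 Fracture males (83.2 to 129 CPM) were above the 3 Sham males (56.8 to 75.0 CPM), and the females overlapped (75.3 to 108 and 69.5 to 102 CPM). The 12 muscle genes were ordered alike and summed to 286 to 1572 CPM in Fracture males and 37.5 to 59.6 CPM in Sham males, against 68.7 to 937 CPM in Fracture females and 148 to 794 CPM in Sham females. Each of these ranges holds 3 libraries. The share of all genes that separate in this way was not counted, so the ranges are given as descriptions. The difference between the sexes in the fracture effect was -0.55 for Pvalb (95% CI -1.20 to 0.10, edgeR adjusted p = 0.755) and 0.28 for Calb1 (adjusted p = 0.796). All 12 muscle genes were negative for that difference (median -3.97, 0 called, 10 at an unadjusted p under 0.05), and their part in the value of Pvalb was not tested. No interaction of sex with fracture (0% of 22047 genes called; 7.04% at an unadjusted p under 0.05) or with PDX (0.00457% of 21878; 4.14% at an unadjusted p under 0.05) was called for a member, and 0 of the 9 had an unadjusted p under 0.05 by edgeR or DESeq2.

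The other genes of these neuron classes were taken as 3 lists. Of 9 further proprioceptor genes, edgeR with sex as a covariate called 0 in any of the 3 group comparisons, with 0, 1 and 2 at an unadjusted p under 0.05 in Fracture against Sham, Fracture+PDX against Fracture and Fracture+PDX against Sham. The shares of all genes at that p were 18.5%, 5.41% and 18%. Lmcd1 was called in Fracture+PDX against Sham in 2 of 22 alternatives. Ntrk3, the neurotrophin-3 receptor, was at 5.73 FPKM with log2 fold changes of 0.11, -0.02 and 0.09 for Fracture against Sham, Fracture+PDX against Fracture and Fracture+PDX against Sham. Pou4f3, a POU-domain transcription factor, was at 7.70 FPKM with -0.02, -0.09 and -0.11. Calb2, the calcium buffer calretinin, was at 6.6 FPKM and ranged from 8.04 to 16.8 CPM in Sham, 10.4 to 20.8 CPM in Fracture and 7.68 to 13.9 CPM in Fracture+PDX. Its groups overlapped, and its log2 fold changes were 0.40, -0.51 and -0.11 (edgeR adjusted p = 0.303, 0.825 and 0.800).

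Of 10 further A-fiber LTMR genes, 2 rose after fracture and 0 fell, where 2.92% of all genes were called. Nefh, the heavy neurofilament chain of large myelinated axons, had 2724 to 3051 CPM in Sham, 3214 to 3562 CPM in Fracture and 2973 to 3729 CPM in Fracture+PDX. All Fracture libraries were above all Sham libraries. Nefh rose by 0.22 on the log2 scale in Fracture (95% CI 0.14 to 0.30, edgeR adjusted p = 0.0126), and its difference in Fracture+PDX against Sham was 0.18 (edgeR adjusted p = 0.0965, past the threshold in 3 of 22 alternatives). Necab2, of the same list, was called in Fracture against Sham in 1 of 22 alternatives. The call of Nefh in Fracture was lost with the muscle mean as a covariate and with the replicate block, while its log2 fold change stayed between 0.20 and 0.24 over the 22 alternatives.

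Ret, the receptor tyrosine kinase for GDNF-family ligands, had 726 to 794 CPM in Sham, 782 to 906 CPM in Fracture and 840.03 to 948 CPM in Fracture+PDX. All Fracture+PDX libraries were above all Sham libraries. Ret rose by 0.13 in Fracture (edgeR adjusted p = 0.0283, past the threshold in 10 of 22 alternatives) and by 0.20 in Fracture+PDX against Sham (95% CI 0.14 to 0.26, edgeR adjusted p = 0.00251, past it in 22 of 22). Fracture+PDX against Fracture gave 0.07 (edgeR adjusted p = 0.887). Ret is also expressed by nociceptors.

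The 7 further C-LTMR genes all had positive values in Fracture against Sham (median 0.13, 0 called, 3 at an unadjusted p under 0.05) and in Fracture+PDX against Sham (median 0.17, 1 called, 5 at an unadjusted p under 0.05). The shares over all genes were 2.92% for calls and 18.5% at an unadjusted p under 0.05 in the first comparison, and 4.5% and 18% in the second. The called gene was Cacna1i, a T-type calcium channel, with 7.40 to 9.65 CPM in Sham, 7.93 to 10.3 CPM in Fracture and 7.56 to 12.5 CPM in Fracture+PDX. Its groups overlapped. Cacna1i rose by 0.40 in Fracture+PDX against Sham (95% CI 0.18 to 0.61, edgeR adjusted p = 0.0437), and it was called in 7 of 22 alternatives. The GDNF-family co-receptor Gfra2 (36.3 FPKM), the touch channel Piezo2 (20.2 FPKM) and the purinergic receptor P2ry1 (11.4 FPKM) had 0.19, 0.12 and 0.05 in that comparison, none called by edgeR with sex as a covariate. Of this list, Gfra2 was called there in 3 and Tafa4 in 5 of 22 alternatives. Gfra2 was lower in females over all libraries (-0.26, 95% CI -0.36 to -0.16, edgeR adjusted p = 0.0190), and 6 of these 7 genes had lower values in females.

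Values in Fracture against Sham and in Fracture+PDX against Sham were positive for 8 and 9 of the 10 A-fiber genes and for 6 and 5 of the 9 proprioceptor genes. All 12 pan-neuronal genes had positive values in Fracture against Sham (median 0.11, 3 called) and in Fracture+PDX against Sham (median 0.14, 4 called), against calls for 2.92% and 4.5% of all genes. The part of this shift in the values of the A-fiber and C-LTMR genes was not tested. For the members themselves, scaling to the pan-neuronal mean left 0.23 for Pvalb, 0.51 for Slc17a8, 0.03 for Runx3 and values between -0.15 and 0.18 for the others in Fracture against Sham.

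**Figure D5:**
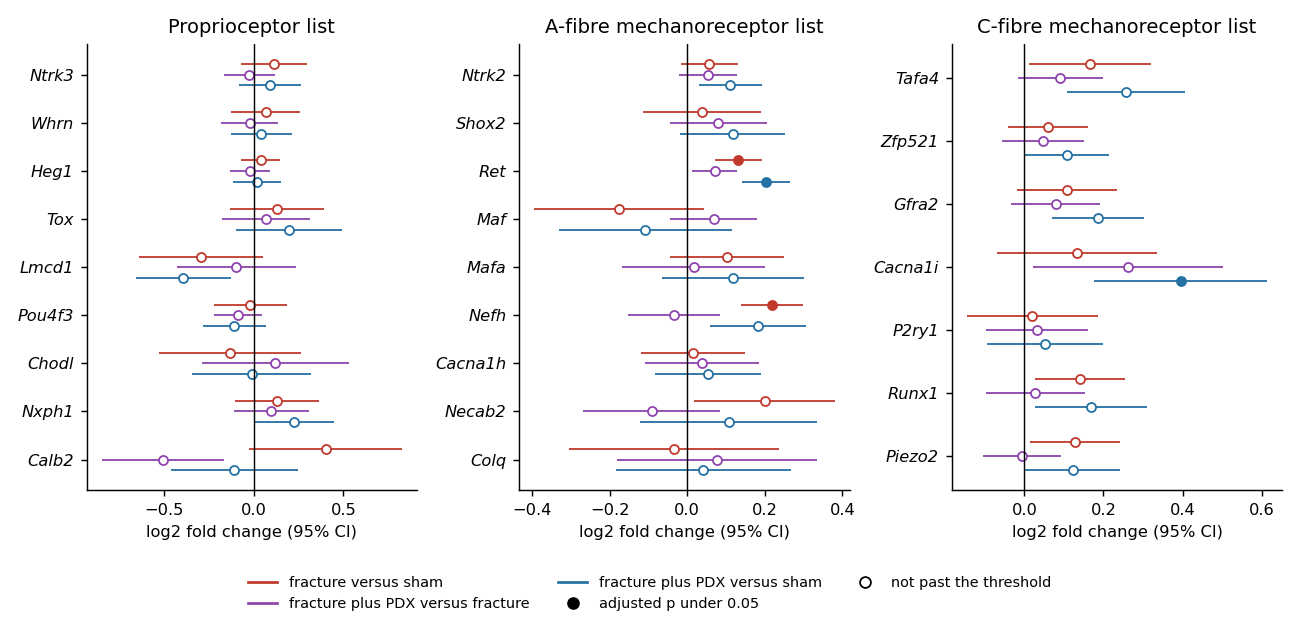
Log2 fold changes with 95% confidence intervals of 9 proprioceptor, 9 A-fiber LTMR and 7 C-LTMR genes in the 3 comparisons. Filled circles passed an adjusted p of 0.05: Nefh and Ret in Fracture against Sham, and Ret and Cacna1i in Fracture+PDX against Sham.

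The 9 genes did not vary as a unit. Of their 36 pairs, 25 had a positive correlation of deviations across the 18 libraries, with a median r of 0.18. The highest were Etv1 with Calb1 (0.72), Etv1 with Cntnap2 (0.65) and Pvalb with Etv1 (0.56), and the lowest was Spp1 with Th (-0.45). All points share depth and dissection within a library, so these are descriptions. Genes most like each member by the same measure were Dmxl1 (r = 0.93), Kif5c and Erc1 for Etv1, Abhd12 (0.88), Mdm2 and Tll1 for Spp1, and Zfp750 (0.88), Gm10524 and Ly9 for Runx3. For the A-fiber genes they were Cep85l (0.87), Atxn1l and Adgrg2 for Calb1, Ahcyl1 (0.90), Cdh2 and Serpini1 for Cntnap2, and Chml (0.93), Dapk2 and Prokr1 for Ntng1. For the C-LTMR genes they were Adcy2 (0.90), Gm12183 and Rbms3 for Th, and Prkch (0.86), Zpr1 and Gm2026 for Slc17a8. Spread between libraries also differed among members: 5 of the 9 (Spp1, Th, Pvalb, Calb1 and Etv1) varied more within groups than 94.6% to 99.0% of genes at a like level, whereas Runx3 and Ntng1 were near the middle, at 55.3% and 57.8%.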

How the data were processed

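Per the labels, L3–L5 DRG poly(A) RNA was made into stranded libraries; the submitters' notes name cutadapt 1.10, FastQC, HISAT2, StringTie and mm10. Their order, the strand setting and the counting tool are not given in the sources used here. The authors deposited raw counts and FPKM per gene for 18 libraries. Fold changes are from the counts, and levels between single genes are from FPKM. Sums over lists are in CPM, which takes no account of transcript length. CPM were scaled by TMM. Each comparison used 12 libraries: edgeR 4.0.16 (R 4.3.3) with the quasi-likelihood test, sex as a covariate, a minimum count of 10, and Benjamini-Hochberg adjustment over all genes tested. DESeq2 1.42.0, limma 3.58.1 on log2(FPKM + 1), other scalings, filters and leaving out each library were alternatives. The procedure was tested on simulated data. Exact permutation tests (two-sided) enumerated 924 labelings; relations used 100000 permutations of the deviations, which are not fully independent. Each library was taken as 1 mouse, since the mice per group given in the figure legends equal the libraries per group. All 9 members, and, of the 3 lists of further proprioceptor and LTMR genes, each gene called and the 3 highest by FPKM are named, except 1 list gene that is not reported here. Members and lists were chosen with earlier results of these data known.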

Additional observations from a re-analysis of the deposited data

Results flagged for a closer look

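Runx3 in Fracture+PDX male 2 was at 10.5 CPM, apart from the other 5 Fracture+PDX libraries, the nearest of which had 13.2 CPM. Its gap to them was 0.776 of the whole range of the group, above Dixon's 95% critical value for 6 samples. By chance about 1 in 20 groups is marked this way, and 27 groups of members were examined. Th in Sham male 1 (136 CPM, a gap of 0.623 of the range) fell just under that value.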

How the results depend on the processing

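Same-numbered libraries were set side by side for Fracture against Sham, Fracture+PDX against Fracture and Fracture+PDX against Sham. In that order, 1, 3 and 1 of 6 pairs deviated together with r over 0.1. Libraries that correlated best with their own number were 3, 4 and 2 of 6. In Fracture+PDX against Fracture the 3 pairs were all the male pairs (r = 0.26, 0.15 and 0.19), each best with its own number. Whether replicate numbers mark a pairing or a shared batch was not tested. With the replicate block, calls over all genes were 118, 0 and 486, against 603, 0 and 925 without it. No member was called with it. DESeq2 called 1511, 15 and 1620 genes, and the added muscle covariate left 55 in Fracture against Sham. Leaving out 1 library gave 213 to 710, 0 to 1 and 498 to 1008 calls. In Fracture against Sham, counts fell over 1.5 times without Sham male 2 (253), male 3 (245), female 1 (372) or female 2 (291) and without Fracture male 1 (378), male 2 (380), male 3 (287) or female 2 (213). In Fracture+PDX against Sham they did so without Sham male 2 (539), male 3 (536) or female 2 (526) and without Fracture+PDX male 3 (560) or female 1 (498). For sex, DESeq2 called 66 genes for the interaction with fracture (0 by edgeR), 9 for that with PDX (1 by edgeR, and 0 with at least 10 counts in every library) and 330 between females and males (61 by edgeR). The cause of these differences was not tested.

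Of 702 values of members under an alternative, 654 kept their direction and side of the threshold, 45 changed sign and 3 passed the threshold: Calb1 by DESeq2, Calb1 without Fracture male 2, and Runx3 in Fracture+PDX against Sham without Fracture+PDX male 2. The values that changed sign lay between -0.12 and 0.07. Relative to the pan-neuronal mean, Fracture against Sham gave -0.075 for Etv1, -0.042 for Spp1, -0.024 for Cntnap2 and -0.077 for Th, and Fracture+PDX against Sham gave -0.063 for Pvalb, -0.12 for Etv1, -0.044 for Cntnap2 and -0.098 for Th. With the muscle covariate Etv1 was -0.0093 in Fracture against Sham, and Fracture+PDX against Fracture gave 0.015 for Pvalb, 0.011 for Etv1, 0.015 for Cntnap2 and 0.059 for Th. Limma gave -0.0066 and -0.0074 for Etv1 in Fracture+PDX against Sham, with pseudocounts of 1 and 0.1. Leaving out each library in turn moved Etv1 between -0.0072 and 0.092, Spp1 between -0.11 and 0.14 and Th between -0.058 and 0.16 in Fracture against Sham. It moved Etv1 between -0.090 and 0.011, Cntnap2 between -0.031 and 0.026 and Th between -0.057 and 0.070 in Fracture+PDX against Fracture, and Etv1 between -0.040 and 0.062 and Th between -0.039 and 0.14 in Fracture+PDX against Sham. Leaving out 1 library also moved values by over 1.5 times for Pvalb in Fracture+PDX against Fracture (-0.19 without Fracture male 3), Runx3 in Fracture against Sham (0.09 without Fracture female 2), and, in Fracture+PDX against Sham, Spp1 (-0.29 without Sham male 1, -0.035 without Sham male 2), Slc17a8 (0.13 without Sham female 2, 0.42 without Sham female 1), Ntng1 (-0.064 without Sham female 1) and Calb1 (0.086 without Fracture+PDX female 1). Moves of that size also occurred for Ntng1 in Fracture against Sham, between -0.080 and -0.0022. In Fracture+PDX against Fracture, Runx3 moved between 0.043 and 0.15 and Ntng1 between -0.088 and -0.030. In Fracture+PDX against Sham, Pvalb moved between 0.0034 and 0.13 and Cntnap2 between 0.057 and 0.11. By CPM in place of FPKM, Cntnap2 ranked 2, Etv1 3, Th 4 and Pvalb 5. With 6 libraries per group, a member's fold change was bounded by its interval, widest for Slc17a8 and Spp1 in both comparisons with Sham and for Slc17a8 in Fracture+PDX against Fracture.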
